A study of Mus musculus with 7 samples.

Results

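The 9 genes Drd1, Drd2, Adora2a, Ppp1r1b, Gpr6, Rgs9, Pde10a, Six3 and Ido1, which mark the projection neurons of the striatum, were followed in forebrain RNA of Lhx6 mutant and control mice. They were found by gene symbol in a table of 47729 mouse genes, each under 1 Ensembl identifier, and 9 of 9 passed the filter on low counts that left 19684 genes for testing. Forebrains of F1(C57BL/6 X 129Sv) mice were dissected at postnatal day 15 and sequenced as 7 libraries. The 4 control libraries came from Lhx6+/- animals and the 3 mutant libraries from Lhx6-/- animals, and each library pooled 2 animals. The null allele, Lhx6tm2Vpa, was inherited through the germ line and so was not limited to a cell type, and the controls themselves carried 1 copy of it. Pools held males, females or both, and the columns of the count table, which carry a genotype and a library number (controls 2, 3, 10 and 11, mutants 5, 12 and 13), could not be tied to the sex or the RNA quality of a pool.

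Striatal projection neurons are the GABAergic output cells of the striatum and make up most of its neurons. Those of the direct pathway carry the dopamine receptor D1, which raises cyclic AMP, and those of the indirect pathway carry the dopamine receptor D2, which lowers it, together with the adenosine receptor encoded by Adora2a and the orphan receptor GPR6. Both kinds use DARPP-32, the product of Ppp1r1b, which turns the protein kinase A signal into inhibition of protein phosphatase 1, and both break down cyclic nucleotides with PDE10A and shorten G protein signals with RGS9. Six3 is a homeobox factor needed for the formation of indirect pathway neurons. Ido1 encodes an enzyme that opens the kynurenine route of tryptophan breakdown and is on the list by the choice of members. Striatal projection neurons arise in the lateral ganglionic eminence, whereas Lhx6 acts in cells of the medial ganglionic eminence, the source of the parvalbumin and somatostatin interneurons.

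The promoters of the members were compared by the short motifs they hold. Whether such motifs bear on the course of the genes over the libraries was not tested. The set of RefSeq promoters used here (GRCm38.p6) held 8 promoters for 6 of the 9 genes, and none for Adora2a, Ppp1r1b and Ido1. Each ran from 250 bases before the start of transcription to 50 bases after it. The promoters of both dopamine receptors are shown because these receptors define the direct and the indirect pathway, with the GC box (GGGCGG, either strand) in capitals, and that of Gpr6 because it alone among the 8 held a full cyclic AMP response element (TGACGTCA), which is in capitals there. They lie at chr13:54055609-54055908 on the minus strand (Drd1), chr9:49340153-49340452 on the plus strand (Drd2) and chr10:41072241-41072540 on the minus strand (Gpr6), and each is written 5′ to 3′ along its gene.
Drd1: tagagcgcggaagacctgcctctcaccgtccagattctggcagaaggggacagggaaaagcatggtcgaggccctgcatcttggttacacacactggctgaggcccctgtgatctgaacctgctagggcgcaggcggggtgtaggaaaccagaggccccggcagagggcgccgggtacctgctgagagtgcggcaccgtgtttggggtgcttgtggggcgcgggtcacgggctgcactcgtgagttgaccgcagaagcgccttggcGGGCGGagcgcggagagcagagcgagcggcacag
Drd2: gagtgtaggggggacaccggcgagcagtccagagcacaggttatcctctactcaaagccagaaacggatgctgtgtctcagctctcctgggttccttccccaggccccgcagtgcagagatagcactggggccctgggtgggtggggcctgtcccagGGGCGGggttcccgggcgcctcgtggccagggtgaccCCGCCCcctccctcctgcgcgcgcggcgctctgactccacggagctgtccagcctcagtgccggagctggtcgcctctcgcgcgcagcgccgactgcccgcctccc
Gpr6: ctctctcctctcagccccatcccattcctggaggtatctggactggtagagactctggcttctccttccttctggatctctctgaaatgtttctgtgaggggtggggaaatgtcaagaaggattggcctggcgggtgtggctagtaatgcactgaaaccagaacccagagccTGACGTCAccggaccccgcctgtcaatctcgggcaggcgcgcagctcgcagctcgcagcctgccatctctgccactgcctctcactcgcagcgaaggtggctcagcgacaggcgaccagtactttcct
Counted from the start of transcription, the GC box of the Drd1 promoter shown began at base 17 and those of Drd2 at -93 and -56, the latter on the opposite strand. The cyclic AMP response element of Gpr6 began at -78. A further Drd1 promoter (chr13:54054731-54055030, minus strand), which is not shown, also held a GC box, at -133. A GC box was found in 6 of the 8 promoters, against 35.7% of all 32851 mouse promoters of the same length. Drd1 and Pde10a entered this count more than once, each time with a GC box, so the 8 promoters are not separate observations. The cyclic AMP response element was found in 1.79% of all promoters, and its shorter core TGACG, which overlaps it, in 1 of the 8 and in 20.8% of all. The TATA box (TATAAA) stood in 1 of the 8, that of Rgs9, against 13.6% of all, and the homeodomain core TAATTA in 0 against 5.29%. The CCAAT box was found in 4 of the 8 against 37.4% of all, and the E-box CANNTG in 4 against 72.3%. The share of G and C ran from 50% in Six3 to 71.3% in 1 of the Pde10a promoters, with a median of 52.7% over all promoters. These matches describe the letters of the windows and say nothing of binding.

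All 9 genes were measurable in every library, and their levels covered a wide range. Per kilobase of exon (all annotated exons of a gene merged), Ppp1r1b stood far above the rest at 56.6 ± 16.2 CPM per kb (CPM is a count scaled to a library of fixed size) in controls (SD, n = 4) and 72.4 ± 10.3 in mutants (SD, n = 3). Adora2a (11.7 ± 3.28 in controls), Pde10a (9.57 ± 2.40), Drd2 (7.04 ± 3.21), Rgs9 (5.88 ± 1.38), Drd1 (5.33 ± 0.864) and Gpr6 (4.49 ± 1.01) followed on this scale, and the SDs of neighbours in this order overlapped. Six3 (0.769 ± 0.123 CPM per kb) and Ido1 (0.544 ± 0.157) lay lowest, and their SDs also reached each other. In mutants the order from Ppp1r1b to Ido1 was the same, with Gpr6 at 4.00 ± 1.63 and Six3 at 1.17 ± 0.271 CPM per kb. Ido1 had 21.0 to 46 raw counts in a library, so that its values are the least precise of the 9. The label was met in that markers of both pathways were present, among them Penk and Tac1, but a dissected forebrain also holds cortex and other tissue, and the 9 genes are not expressed in the striatum alone.

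None of the 9 genes passed the test between the genotypes, although 8 of them had a higher mean in mutants. The quasi-likelihood test of edgeR, adjusted by the Benjamini-Hochberg method over all 19684 genes at a threshold of 0.05, called 4.85% of genes, 2.97% as higher and 1.87% as lower in mutants. Six3 (log2 fold change 0.60, edgeR adjusted p = 0.133) and Pde10a (0.50, edgeR adjusted p = 0.224) came closest. Only these 2 had an unadjusted p of at most 0.05, as did 18.2% of all genes. No member separated the genotypes without overlap, which 19.7% of all genes did in one direction or the other. The median log2 fold change was 0.36 over the 9 genes and -0.013 over all genes, of which 47.8% had a higher mean in mutants. With single libraries left out, the median over the 9 genes ran from 0.23 (without mutant library 12) to 0.52 (without control library 11). In whole forebrain RNA, a change in the number of cells of a type and a change in RNA per cell cannot be told apart.

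**Figure D1:**
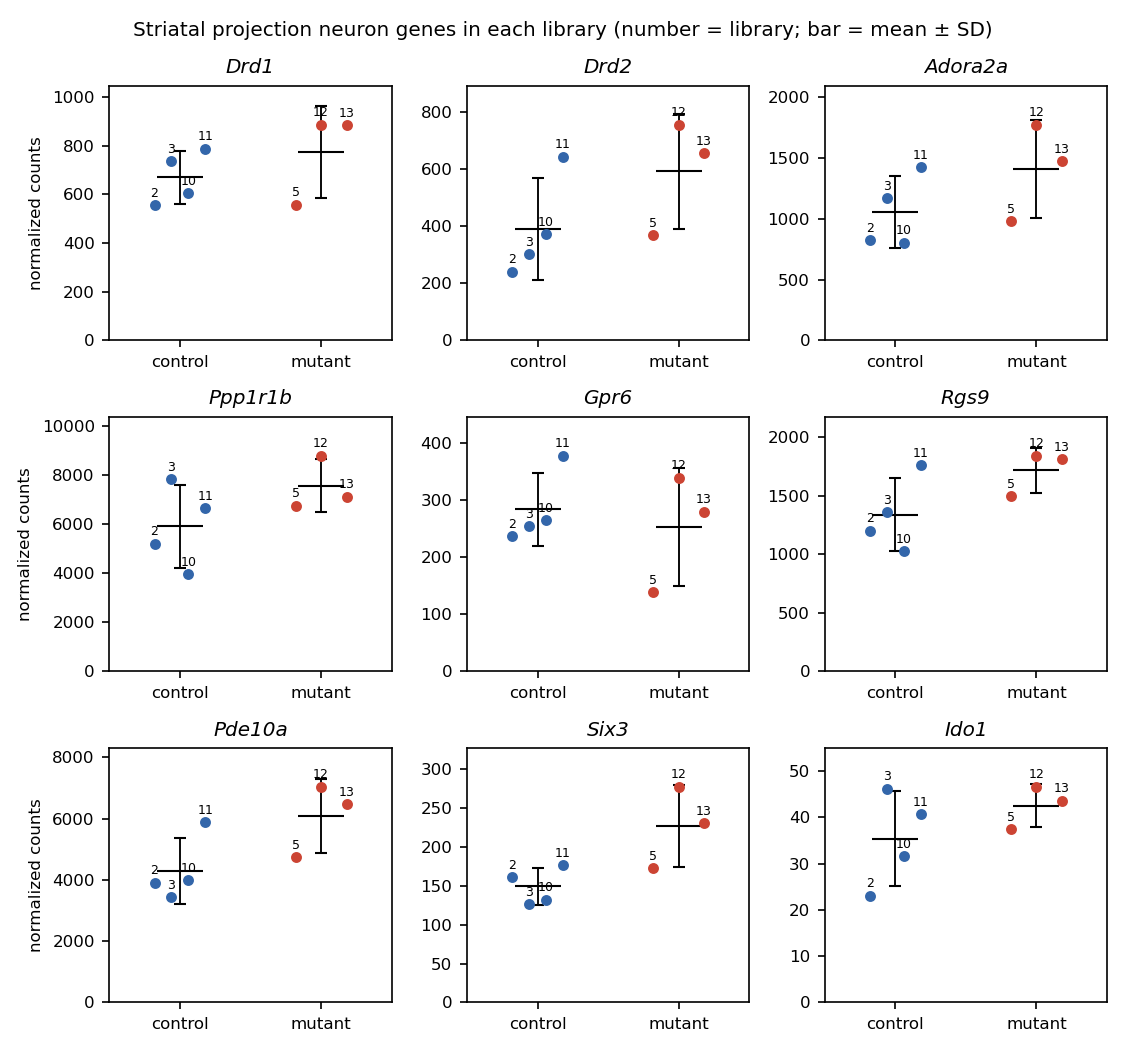
Normalized counts of the 9 genes (y axis, linear, from 0) in the 4 control and 3 mutant libraries, with library numbers beside the points and the mean ± SD as bars. For every gene at least 1 mutant point lies within or below the range of the controls, mutant library 12 is the highest mutant and mutant library 5 the lowest.

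Drd1 (ENSMUSG00000021478), the receptor of the direct pathway, lies on the minus strand at chr13:54051186-54055658 of GRCm38. Normalized counts are counts scaled by library size and TMM factor to the mean library, and those of Drd1 were 555 (library 2), 735 (library 3), 604 (library 10) and 787 (library 11) in controls. The mutants had 557 (library 5), 885 (library 12) and 883 (library 13). Mutant libraries 12 and 13 lay above all controls, whereas mutant library 5 was almost as low as the lowest control. Means were 670 ± 109 in controls (SD, n = 4) and 775 ± 189 in mutants (SD, n = 3), a log2 fold change of 0.21 with a standard error of 0.189 (edgeR adjusted p = 0.651, 95% interval -0.22 to 0.64).

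Drd2 (ENSMUSG00000032259, chr9:49340662-49407214, plus strand), the receptor of the indirect pathway, had 240, 302, 371 and 642 normalized counts in controls and 367, 753 and 655 in mutants, in the same order of libraries. Its spread was the widest of the 9 genes within controls, where the highest library held 2.67 times the lowest, and mutant library 5 lay inside the control range. The means of 389 ± 177 and 592 ± 201 (SD) gave a log2 fold change of 0.60 (SE 0.349, edgeR adjusted p = 0.425, 95% interval -0.19 to 1.40). That interval takes in no change and a 2.63-fold increase alike.

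Adora2a (ENSMUSG00000020178, chr10:75316943-75334788, plus strand), which opposes the D2 receptor in the same cells, followed the same course. Its normalized counts were 826, 1168, 805 and 1424 in controls and 980, 1773 and 1473 in mutants. Again mutant libraries 12 and 13 exceeded every control and mutant library 5 did not. The log2 fold change was 0.42 (SE 0.246, edgeR adjusted p = 0.441, 95% interval -0.14 to 0.98).

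Gpr6 (ENSMUSG00000046922, chr10:41069989-41072285, minus strand), a constitutively active receptor of indirect pathway neurons, was the only member with a lower mean in mutants. Its normalized counts were 237, 255, 266 and 378 in controls and 139, 339 and 280 in mutants. Mutant library 5 held the lowest value of all 7 libraries, while the other two mutants fell within the control range. The log2 fold change was -0.17 (SE 0.291, edgeR adjusted p = 0.834, 95% interval -0.83 to 0.49), and it became 0.14 without mutant library 5 and 0.00067 without control library 11.

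Ppp1r1b (ENSMUSG00000061718, chr11:98348404-98357796, plus strand) had 5201, 7843, 3971 and 6640 normalized counts in controls and 6760, 8785 and 7121 in mutants. Control library 3 exceeded mutants 5 and 13, and the other three controls lay below every mutant. The log2 fold change was 0.35 (SE 0.213, edgeR adjusted p = 0.452, 95% interval -0.13 to 0.84). Of its exon bases, 15.7% overlap 1700003D09Rik on the opposite strand, and since it is not known whether counting used strand, reads in that stretch could belong to either gene.

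Rgs9 (ENSMUSG00000020599, chr11:109225355-109298129, minus strand), an accelerator of GTP hydrolysis in striatal neurons, had 1203, 1363, 1029 and 1762 normalized counts in controls and 1499, 1841 and 1810 in mutants. Only control library 11 reached into the mutant range. Its log2 fold change was 0.36 (SE 0.171, edgeR adjusted p = 0.318, 95% interval -0.030 to 0.75).

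Pde10a (ENSMUSG00000023868, chr17:8525372-8986648, plus strand), the phosphodiesterase that breaks down cyclic AMP and cyclic GMP in both kinds of projection neuron, had 3909, 3428, 3990 and 5873 normalized counts in controls and 4740, 7035 and 6469 in mutants. Control library 11 was the only control inside the mutant range, above mutant library 5. Means of 4300 ± 1077 and 6081 ± 1196 (SD) gave a log2 fold change of 0.50 (SE 0.198, edgeR unadjusted p = 0.0336 and adjusted p = 0.224, 95% interval 0.049 to 0.95).

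Six3 (ENSMUSG00000038805, chr17:85613608-85629302, plus strand) had 161, 127, 132 and 177 normalized counts in controls and 172, 277 and 231 in mutants. Mutant library 5 was lower than control library 11 and kept the groups from separating. Means of 149 ± 23.8 and 227 ± 52.6 (SD) gave a log2 fold change of 0.60 (SE 0.194, edgeR unadjusted p = 0.0130 and adjusted p = 0.133, 95% interval 0.16 to 1.05). The opposite-strand gene Six3os1, with Gm28528, overlaps 5.03% of its exon bases. Six3os1 averaged 62.9 ± 23.4 normalized counts in controls and 85.5 ± 27.0 in mutants and was not called (log2 fold change 0.44, edgeR adjusted p = 0.556).

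Ido1 (ENSMUSG00000031551, chr8:24584136-24597009, minus strand) had 23.0, 46.2, 31.7 and 40.7 normalized counts in controls and 37.4, 46.6 and 43.6 in mutants. The mutants lay together at or near the top of the control range. The log2 fold change was 0.26 (SE 0.272, edgeR adjusted p = 0.700, 95% interval -0.36 to 0.88).

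The 9 genes rose and fell together from library to library within a genotype. Mutant library 12 was the highest mutant and mutant library 5 the lowest for 9 of 9 genes, and control library 11 was the highest control for 7, with control library 3 in its place for Ppp1r1b and Ido1. The lowest control was library 2 for 4 genes, library 10 for 3 and library 3 for 2. After the mean of each genotype was taken out, the deviations of 36 of 36 pairs of members correlated positively over the 7 libraries, and 29 of the 36 (80.56%) had Pearson's r above 0.5. Over all pairs of tested genes these shares were 49.95% and 22.42%, and the median r was 0.73 for members and 0 for all. The closest pair was Drd1 with Adora2a (r = 0.938), receptors of different pathways, and the loosest was Six3 with Ido1 (r = 0.055). These correlations are descriptions over 7 libraries that share depth and normalization, and they show that the 9 genes are not 9 separate observations of the genotype. The median SD of a member around its genotype means was 0.337 on the log2 scale, against 0.207 for all tested genes.

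**Figure D2:**
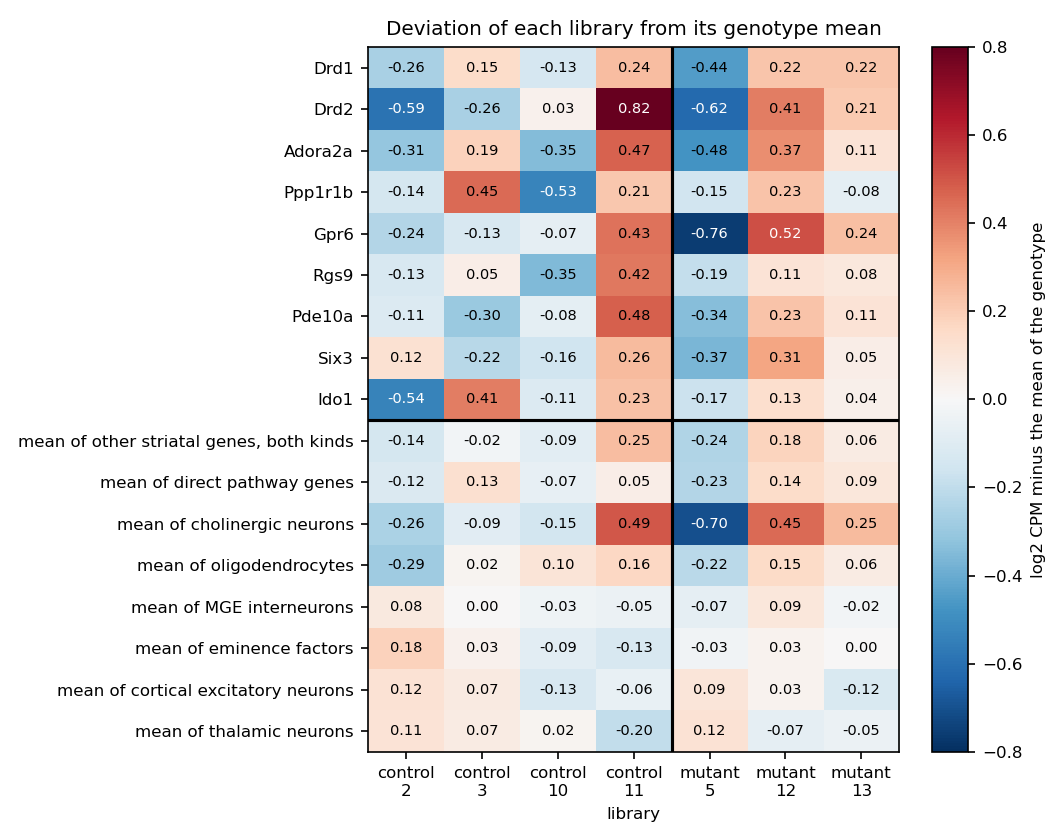
Deviation of each library (columns) from the mean of its genotype in log2 CPM (colour and printed value) for the 9 genes and for the means of 8 other gene lists (lists under the horizontal line, mutants right of the vertical line). Control library 11 and mutant library 12 are positive for all 9 genes and mutant library 5 is negative for all 9. The means of the other striatal genes, of the cholinergic neuron genes and of the oligodendrocyte genes have the same signs in these libraries.

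Other genes moved with the members in the same libraries. The mean deviation of 24 further genes shared by both kinds of projection neuron, such as Adcy5 and Bcl11b, followed that of the members with r = 0.992, and that of 8 further direct pathway genes with r = 0.851. The markers of forebrain cholinergic neurons (Chat, Slc5a7 and Slc18a3), a cell type of the striatum and basal forebrain, followed with r = 0.961, and their summed level ran from 5.57 to 9.81 CPM in controls and from 5.40 to 11.6 CPM in mutants. The deviation of 5 thalamic markers ran the other way (r = -0.904), with a summed level of 55.8 to 73.2 CPM in controls and 55.8 to 63.2 CPM in mutants. Oligodendrocyte markers had r = 0.805 and cortical excitatory neuron markers r = -0.383. The summed level of the members was 314 to 497 CPM in controls and 428 to 610 CPM in mutants. How far the makeup of the dissected tissue differed between pools was not tested.

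Among the 5 genes whose log2 CPM over the 7 libraries lay closest to the mean standardized level of the members, out of 15753 other genes of at least 1 CPM, were Cd4 (r = 0.970), Slc10a4 (r = 0.967), Dach2 (r = 0.964) and Gng7 (r = 0.961). Gng7, a G protein gamma subunit of striatal neurons, is also among the 24 shared genes. None of these genes was called between the genotypes, with log2 fold changes from 0.24 in Gng7 to 0.70 in Slc10a4, the latter with an edgeR adjusted p of 0.283.

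Libraries 2, 3 and 5 stood apart from libraries 10 to 13 on the first principal component (39.63% of variance), whereas the second (23.36%) separated the genotypes. No label says what the library numbers mean. Within libraries 2, 3 and 5, where the only mutant is the low library 5, the log2 difference was -0.19 for Drd1, 0.45 for Drd2, 0.0057 for Adora2a, 0.091 for Ppp1r1b, -0.81 for Gpr6, 0.24 for Rgs9, 0.38 for Pde10a, 0.28 for Six3 and 0.19 for Ido1, as values with no test. Within libraries 10 to 13 it was 0.37 for Drd1, 0.53 for Drd2, 0.60 for Adora2a, 0.63 for Ppp1r1b, -0.028 for Gpr6, 0.45 for Rgs9, 0.49 for Pde10a, 0.73 for Six3 and 0.32 for Ido1. Only Drd1 in libraries 2, 3 and 5 turned away from the direction of its pooled fold change. Fitted on libraries 10 to 13 alone, with 2 libraries of each genotype, edgeR's quasi-likelihood test called Six3 (log2 fold change 0.73, adjusted p = 0.0335) and no other member, while it called 10.3% of all genes there. With the library numbers as a covariate it called 0 of 9 members and 11.2% of all genes, and DESeq2 called 0 of 9 members and 8.8% of all genes. By limma-voom 0 of 9 members and 4.89% of all genes were called.

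Penk and Tac1, neuropeptide genes of the same neurons, passed the test between the genotypes, with higher levels in mutants. Of 35 other striatal genes listed, 34 were tested (Gpr52 was not analysed here), and 3 were higher in mutants, 0 lower, at a median log2 fold change of 0.16, with 24 of 34 positive. Over all genes 2.97% were higher and 1.87% lower, and 47.8% had a positive fold change. Penk, which encodes the enkephalin precursor of indirect pathway neurons, rose from 2272, 4025, 2454 and 3518 normalized counts in controls to 6160, 7999 and 6923 in mutants, without overlap (log2 fold change 1.20, SE 0.201, edgeR adjusted p = 0.0130). Tac1, the substance P precursor of direct pathway neurons, rose from 490 ± 95.2 to 874 ± 153 (SD; log2 fold change 0.83, edgeR adjusted p = 0.0333). Ptpn5, the striatum-enriched phosphatase STEP, rose from 5734 ± 490 to 7800 ± 348 (0.44, edgeR adjusted p = 0.0271). Pdyn, the dynorphin precursor of direct pathway neurons, was not called, at 1089 ± 161 in controls and 947 ± 36.1 in mutants (-0.20, edgeR adjusted p = 0.440). Penk and Tac1 are also made by cells outside the striatum, including cortical neurons, and Ptpn5 by cortical and hippocampal neurons.

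**Figure D3:**
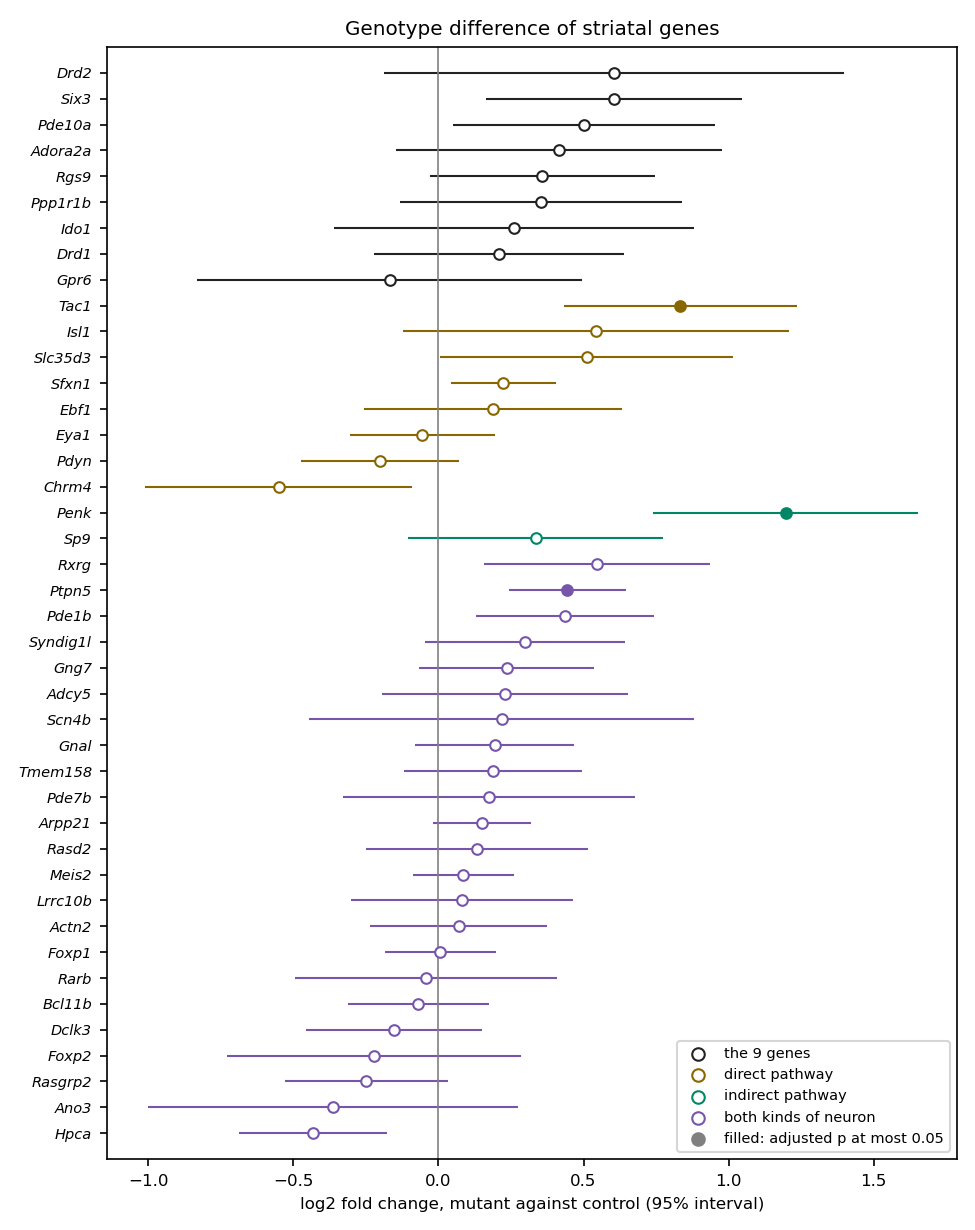
Log2 fold change of mutant against control (x axis) for the 9 genes and the other striatal genes reported by name, with 95% intervals from edgeR's quasi-likelihood fit and filled points where the adjusted p was at most 0.05. The only filled points are Penk, Tac1 and Ptpn5, and 7 of the 9 intervals of the members cross 0.

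Calls of these 3 genes depended on single libraries, as did the number of calls over all genes. Without mutant library 12, or without mutant library 13, none of the 3 was called, and the edgeR adjusted p of Penk was then 0.0595 and 0.0579. Log2 fold changes were then 1.09 and 1.21 for Penk, 0.78 and 0.74 for Tac1, and 0.41 and 0.45 for Ptpn5. Calls over all genes fell from 954 to 387 and 302. Without control library 2 or control library 10 only Penk was called, with 679 and 513 calls over all genes. Without mutant library 5 Ptpn5 was not called (log2 fold change 0.48, edgeR adjusted p = 0.0603), with 458 calls over all genes. Among the most abundant of the other genes, Arpp21, a cyclic AMP-regulated phosphoprotein, had a log2 fold change of 0.15, Gng7 one of 0.24 and Adcy5, the main striatal adenylyl cyclase, one of 0.23, with edgeR adjusted p of 0.341, 0.410 and 0.602. Chrm4, the muscarinic receptor M4 of direct pathway neurons, had -0.55 (edgeR adjusted p = 0.190), and Hpca, the calcium sensor hippocalcin, had -0.43 (edgeR adjusted p = 0.0671) with every mutant below every control. With the 2 sets of library numbers as covariate, both were called as lower (Chrm4 -0.64, edgeR adjusted p = 0.0138, and Hpca -0.39, edgeR adjusted p = 0.0136), as was Ano3 (-0.51, edgeR adjusted p = 0.0185), named here after its values were seen. In that fit 4 of the 34 genes were called as higher, Tac1, Penk, Pde1b and Ptpn5. Without the covariate, every mutant lay above every control in 6 of the 34 genes, Arpp21 among them, and below in 1, Hpca. Of all genes, 19.7% separated in one direction or the other. Fold changes of 10 of the 34 genes were negative.

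Ratios within a library set the pathways beside each other. The ratio of Drd1 to Drd2 counts, which does not depend on scaling, was 2.31, 2.43, 1.63 and 1.23 in the controls, in the order 2, 3, 10 and 11, and 1.52, 1.17 and 1.35 in the mutants, in the order 5, 12 and 13. The mutants lay low but overlapped with control library 11. The ratio of Tac1 to Penk was 0.169, 0.136, 0.178 and 0.168 in controls and 0.114, 0.117 and 0.142 in mutants, again with overlap. Ppp1r1b relative to Slc17a7, the vesicular glutamate transporter of cortical excitatory neurons, was 0.0708, 0.126, 0.0593 and 0.0964 in controls and 0.0854, 0.0975 and 0.0968 in mutants, inside the range of the controls. Slc17a7 itself was higher in every mutant than in every control, though not called (log2 fold change 0.25, edgeR adjusted p = 0.203), which lowers this ratio in mutants.

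Since the striatal genes shared a course over the libraries, each library was also scaled by the geometric mean of the 24 shared genes, a choice made after the data were seen. The scale was 0.885, 0.983, 0.897 and 1.13 in controls 2, 3, 10 and 11 and 0.902, 1.15 and 1.09 in mutants 5, 12 and 13, relative to the mean. These 24 genes had been seen to follow the members, so a smaller spread of the members under this scale is given by its construction and is no result. Six3 then stood at 182, 131, 144 and 153 in controls and 197, 237 and 214 in mutants. Six3, Rgs9 and Pde10a had every mutant above every control, as a description. How many of all genes separated under this scale was not counted, so these separations cannot be set against a background. In this fit 0 of 9 members and 1.51% of all genes were called by edgeR's quasi-likelihood test. Under this scaling the median log2 fold change was 0.29 for members and -0.091 for all genes. Penk was called (log2 fold change 1.12, edgeR adjusted p = 0.00679), and Tac1 (0.0546) and Ptpn5 (0.432) were not, as edgeR adjusted p. The 24 genes include Ptpn5 itself, and a scale made of striatal genes removes any change that all of them share.

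**Figure D4:**
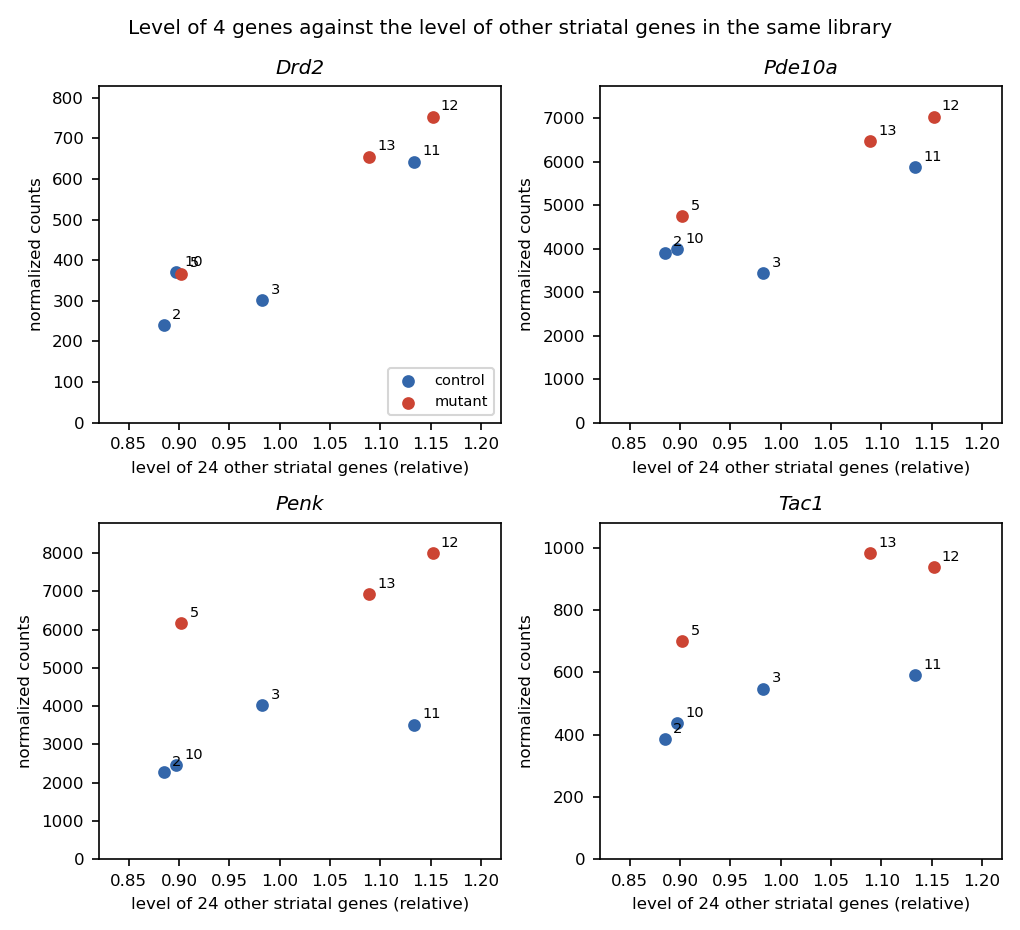
Normalized counts of Drd2, Pde10a, Penk and Tac1 (y axes) against the relative geometric mean of 24 other striatal genes in the same library (x axis), controls in blue and mutants in red, with library numbers. The highest values of Drd2 and Pde10a lie at the right in both genotypes, and the 3 mutant points of Penk lie above all controls at low and high x.

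Genes of dopamine and cyclic AMP signalling around the members were described in the same way. Of 25 genes listed (receptors, kinase subunits, phosphatases and partners), 24 were tested (Drd3 was too low), 2 were higher and 0 lower in mutants (over all genes 2.97% were higher and 1.87% lower), at a median log2 fold change of -0.059. Drd4, a D2-type receptor found mainly outside the striatum, rose from 13.1 ± 4.56 to 45.2 ± 13.9 normalized counts (SD; log2 fold change 1.78, edgeR adjusted p = 0.0239), and Prkar2a, a regulatory subunit of protein kinase A, rose by less (0.38, edgeR adjusted p = 0.0332). Th, the rate-limiting enzyme of dopamine synthesis, rose from 54.5 ± 9.07 to 389 ± 102 (2.83, edgeR adjusted p = 0.000440), whereas the other markers of dopamine neurons were not called, with log2 fold changes of 0.87 for the dopamine transporter Slc6a3, 0.39 for Slc18a2 and -0.38 for Ddc. The other enzymes of the kynurenine route around Ido1 gave 0 calls among 9 tested of 11 listed, at a median of 0.20. Aadat, which makes kynurenic acid, chosen here after its values were seen, had the highest fold change there, from 5.61 ± 1.12 to 16.8 ± 3.97 normalized counts (1.57, edgeR adjusted p = 0.0511). Transcription factors of the ganglionic eminences in which projection neurons arise gave 0 calls of 13 at a median of 0.012, with Pbx3 nearest to the threshold (0.53, edgeR adjusted p = 0.0753). The counts of 0 in these short lists stand beside 4.85% of all genes called.

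The libraries held 32556304 to 38069151 counts in controls and 34943398 to 37384849 in mutants, so depth was alike. Lhx6, the targeted gene, fell from 534 ± 58.5 to 72.5 ± 3.55 normalized counts (SD; log2 fold change -2.88, edgeR adjusted p = 5.99e-05), in the direction of the labels. Markers of medial eminence interneurons were lower in mutants for 4 of 4 genes (summed level 224 to 267 CPM in controls, 53.3 to 55.7 in mutants), among astrocyte markers Gfap was higher, and among oligodendrocyte markers Mbp and Mag were lower. The summed level of choroid plexus markers ran from 129 to 277 CPM in controls and from 63.5 to 212 in mutants. Their part in the values of the members was not tested.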

How the data were processed

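Forebrain RNA was read as single-end reads of 36 bases. Per the submitters' processing notes and the study's methods, the authors trimmed reads with cutadapt 1.9.1, aligned them with Bowtie2 2.2.9 to the Ensembl transcriptome of GRCm38 and deposited expected counts per gene estimated by RSEM 1.2.31, without normalization. RSEM shares ambiguous reads among genes, and whether counting used strand is not given in the sources used here. The authors also deposited exon coordinates, used for positions and lengths, and a DESeq2 comparison, of which only gene symbols were used: its fold changes, standard errors, test statistics, p-values and mean counts were not.

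Expected counts were rounded. After a filter that kept genes reaching 10 counts in 3 libraries or more, libraries were scaled by TMM factors, and genotypes were compared with edgeR's quasi-likelihood test in R 4.3.3 (edgeR 4.0.16, limma 3.58.1, DESeq2 1.42.0), with no covariate and Benjamini-Hochberg adjustment at 0.05. Intervals of 95% use the t distribution of that fit. Correlations and principal components used log2 CPM with a prior count of 2. The script was tested on simulated counts with known changes. No pair of libraries of a genotype agreed within sampling noise (chi-square per degree of freedom 9.93 to 70.4), so each was 1 replicate, and p-values measure the spread between pools. The number of unused columns of sample values was 0. Depth bounds the precision of low genes such as Ido1, and no member was at 0 in a library.

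Members and gene lists were chosen with earlier results of these data known. Named were the 9 members, called genes of the lists and up to 4 of the most abundant others per list, Lhx6, and the 5 genes most correlated with the members. Values of some single genes under this rule are not reported here. Alternatives were other normalizations, filters, tests and subsets of libraries, and a scaling by striatal genes added after the data were seen.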

Additional observations from a re-analysis of the deposited data

Results flagged for a closer look

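Among 141 listed genes, the 4 control libraries held 1 value that lay far from the others in 5 genes, by Dixon's test at the 95% level, which chance passes in about 1 in 20 groups. None of these 5 was among the 43 striatal genes tested, the 9 members included. Ppp3ca, the catalytic subunit of calcineurin, which removes the phosphate that protein kinase A puts on DARPP-32, had 26729 normalized counts in control library 2 and 36932 to 38136 in the other controls. Slc17a6 had 1230 in control library 10 against 810 to 878.5, and Tnnt1 84.35 in control library 3 against 64.03 to 65.24, both on the list of thalamic markers. Avp had 8.774 in control library 2 against 3.013 to 3.838, and Aif1 116.5 in control library 3 against 71 to 73.18.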

How the results depend on the processing

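No paired analysis was possible because the columns carry library numbers and not the replicate numbers of the labels. Over 16 alternatives with a test, the log2 fold change of every member except Gpr6 stayed positive in each, from 0.10 to 0.41 for Drd1, 0.39 to 0.96 for Drd2, 0.22 to 0.63 for Adora2a, 0.20 to 0.59 for Ppp1r1b, 0.25 to 0.52 for Rgs9, 0.38 to 0.69 for Pde10a, 0.44 to 0.78 for Six3 and 0.10 to 0.42 for Ido1. Single libraries moved some of these by over 1.5 times: Drd1 was 0.13 without control 2, 0.41 without mutant 5, 0.10 without mutant 12 and 0.11 without mutant 13. Drd2 was 0.96 without control 11 and 0.39 without mutant 12, Adora2a 0.63 without mutant 5 and 0.22 without mutant 12, Ppp1r1b 0.20 without control 10 and 0.23 without mutant 12, and Ido1 0.10 without control 2 and 0.42 without control 3. Gpr6 ran from -0.44 without mutant 12 to 0.14, with 0.00067 without control library 11 and 0.14 without mutant library 5. No member was called under any alternative other than libraries 10 to 13 alone, where 1 was, Six3 (0.73, edgeR adjusted p = 0.0335 against 0.133 over all libraries, and from 0.0335 to 0.406 over the alternatives). In libraries 2, 3 and 5 alone, without a test, the values of Drd1, Adora2a, Ppp1r1b, Gpr6 and Six3 differed from those over all libraries by more than the standard error of the latter, and Drd1 was -0.19 there. Calls among the 34 other striatal genes numbered 3, and 6 with DESeq2 (5 higher, 1 lower), 7 with the 2 sets of library numbers as covariate (4 higher, 3 lower), 9 in libraries 10 to 13 (7 higher, 2 lower), 1 after scaling by striatal genes and 0 to 3 when single libraries were left out. Calls over all genes numbered 954, and 1731 with DESeq2, 2205 with the covariate, 1922 in libraries 10 to 13, 297 after scaling by striatal genes and 302 to 971 when single libraries were left out. Penk was called in 14 of the 16 alternatives (edgeR, DESeq2 or limma adjusted p 4.06e-07 to 0.0595), Tac1 in 11 and Ptpn5 in 10. The cause of these shifts was not tested.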
